A study of Homo sapiens with 15 samples.

Results

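The 38 genes described here carry the ATF4 stress response and supply the cell with amino acids. They were chosen by symbol, with earlier results of these data known, and each was found in both count tables, among 62700 gene rows. They fall into 6 transcription factors, 6 feedback proteins and effectors, 10 enzymes of amino acid and one-carbon metabolism, 7 amino acid transporters and 9 tRNA synthetases. RNA came from 143B, an established human osteosarcoma cell line, in 5 conditions with 3 libraries each. OSCs (osteosarcoma stem cells) were 143B cells, genotype WT, grown as tumorspheres in DMEM/F12 with B27 supplement, GlutaMAX, EGF and basic FGF. Non-OSCs were WT cells kept in DMEM with fetal bovine serum and sodium pyruvate. The other libraries came from 143B OSCs with a lentiviral control vector (shCtrl, also labelled WT) or a lentiviral short hairpin against PDK1 (shPDK1#1 or shPDK1#2), and whether these were pools or clones is not stated. PDK1 encodes the pyruvate dehydrogenase kinase that limits the entry of pyruvate into the TCA cycle. All groups come from 1 cell line, sphere growth and medium changed together between OSCs and non-OSCs and cannot be told apart, and no source states that the libraries of a group came from separate cultures, so p-values measure the spread between these libraries.

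Libraries held between 7992499 and 11256536 counts in genes. Expression is given as CPM, the usual depth-scaled count, here on the TMM-normalized library size, and the OSC and hairpin tables were processed apart, so levels are compared only within a table. Of the mesenchymal markers, VIM had between 3817 and 6042 CPM and COL1A1 between 390 and 1388 CPM over all libraries, whereas COL1A2 stayed at or under 1.67 CPM. Over the 6 mesenchymal markers, log2 fold changes with shPDK1#2 against shCtrl ran from -0.22 to 2.29. Of 3 epithelial markers (EPCAM, CDH1 and KRT5), 1 was high enough to test in each table and did not pass at an adjusted p of 0.05. Levels of these 3 and of RUNX2, SPARC, ALPL, PECAM1 and VWF are not given here. The blood and endothelial markers PTPRC, CD3D and CDH5 had at most 0.249 CPM, and CD14 had 2.19 CPM on average in non-OSCs and at most 1.25 CPM in every other library; the part of CD14-bearing cells in the results was not tested. PDK1 itself lay between 44.4 and 46.7 CPM in the shCtrl libraries, between 27.3 and 29.0 CPM with shPDK1#1 and between 18.3 and 21.5 CPM with shPDK1#2, which is 62.0% and 43.8% of the shCtrl mean. In such bulk samples, fewer cells of a kind and less RNA per cell cannot be told apart.

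ATF4 is the transcription factor of the integrated stress response. Kinases that sense amino acid shortage, misfolded protein in the endoplasmic reticulum, viral RNA or lack of heme phosphorylate the initiation factor eIF2, which slows translation in general while ATF4 mRNA is translated more. ATF4 then binds DNA as a dimer with C/EBP proteins and raises genes that make, import and charge amino acids, and it induces CHOP (DDIT3), TRIB3 and the phosphatase subunit GADD34 (PPP1R15A), which feed back on the pathway. In tumours the pathway is known for sustaining serine, glycine and asparagine supply.

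The element that ATF4 and C/EBP proteins bind together has the core TGATGNAA. RefSeq promoter windows on GRCh38.p14, each of 250 bases before to 50 bases after an annotated start, were searched for it on both strands (as TTNCATCA on the other). Windows were found for 31 of the 38 members, and 12 of these genes (38.7%) held the core in at least 1 window, beside 4.46% of all 27305 genes. Since 15 of the members had several windows, the share is also given by window, 12 of 51 (23.5%) for the members and 3.62% for the table. By role these were 1 of 5 transcription factors, 1 of 6 feedback genes and effectors, 1 of 6 enzymes, 4 of 6 transporters and 5 of 8 tRNA synthetases. The following stretches, from some of the genes that hold the core, are shown because these genes moved both ways in OSCs, most of them down. Each is written so that the core, in capitals, reads in the same direction.
ASNS: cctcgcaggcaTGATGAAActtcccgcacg
CHAC1: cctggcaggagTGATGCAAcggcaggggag
SLC1A5: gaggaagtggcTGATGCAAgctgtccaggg
MARS1: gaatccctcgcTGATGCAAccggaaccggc
NARS1: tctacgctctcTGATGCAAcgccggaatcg
CEBPG: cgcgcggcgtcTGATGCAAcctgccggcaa
SLC1A4: ccggctggagaTGATGCAAacgggagccgc
The ASNS stretch is chr7:97872458-97872487 (minus strand), where the core begins 68 bases before the start, and the CHAC1 stretch is chr15:40953251-40953280 (minus). Those of SLC1A5 (chr19:46784893-46784922, minus), MARS1 (chr12:57488053-57488082, minus), NARS1 (chr18:57621804-57621833, minus), CEBPG (chr19:33374060-33374089, plus) and SLC1A4 (chr2:64989381-64989410, minus) are the others. Of the 12 genes with the core, 10 were lower and 2 (CEBPG and SLC1A4) higher in OSCs than in non-OSCs. Both rises were small (0.17 and 0.25 on the log2 scale), and that of CEBPG lost its call in 5 of 6 fits without 1 library. Of the 19 searched members without the core in these windows, 9 were lower, 8 higher and 2 did not pass the test. Over all genes tested, 31.5% were lower and 32.4% higher. The core was most frequent in transporters and tRNA synthetases, and all 9 synthetases were lower, with or without it. Role and core were not separated, and the part of the core in these directions was not tested. No window was found for NUPR1, PSPH, SHMT2, ALDH1L2, GPT2, SLC7A11 and YARS1, all of them lower in OSCs except NUPR1 and SLC7A11. Sequence outside the windows was not searched. A match describes letters only and was not tested as a binding site.

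The comparison of OSCs with non-OSCs asked how sphere culture changed these genes. Transcripts of 9 of 10 enzymes and all 9 tRNA synthetases were lower in OSCs, while those of CHOP, GADD34 and GDF15 were higher and ATF4 itself was modestly lower. Of the 37 members that could be tested, 34 differed at an adjusted p under 0.05 (edgeR's quasi-likelihood test, Benjamini-Hochberg adjustment over all genes), beside 63.9% of all 14287 genes tested. Of these, 24 were lower and 10 higher, where 31.5% of all genes were lower and 32.4% higher. OSC and non-OSC libraries were fully separated in 34 members, beside 66.9% of all genes. The median log2 fold change (log2FC, given with its standard error, SE) was -0.73 over the members and -0.005 over all genes. Falls of at least 1 on the log2 scale were seen in 10 members (27.0%, beside 5.53% of all genes) and rises of that size in 4 (10.8%, beside 10.2%). Members are not independent of each other, and these shares describe them without a test of the list.

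**Figure D1:**
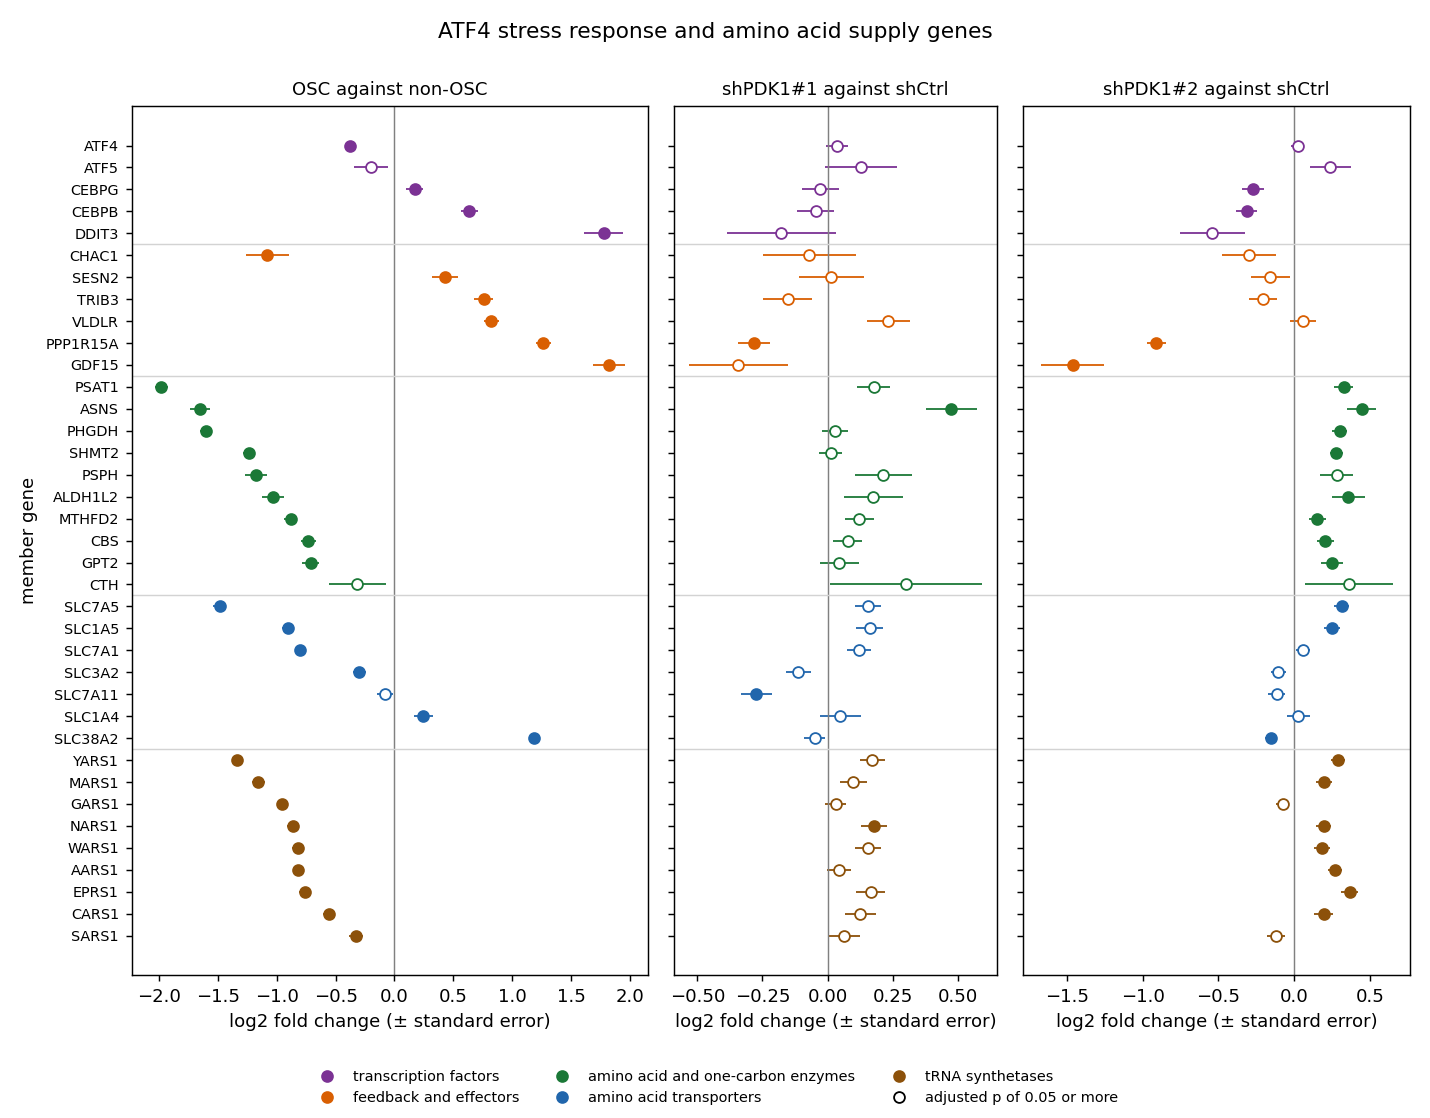
Log2 fold change with its standard error (horizontal axes, which differ in range) for the 37 members tested, grouped by role (vertical axis, colours), in OSC against non-OSC, shPDK1#1 against shCtrl and shPDK1#2 against shCtrl; filled points had an adjusted p under 0.05. In OSCs all 10 enzymes and 9 tRNA synthetases lie left of 0 and 5 of 6 feedback genes and effectors right of it, and with shPDK1#2 all 10 enzymes and 7 of 9 synthetases lie right of 0.

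Among the transcription factors, ATF4 (ENSG00000128272.18, chr22:39519695-39522683; genes are placed by GENCODE 44 on GRCh38) had 435, 435 and 458 CPM in the non-OSC libraries and 354, 333 and 336 CPM in the OSC libraries. All OSC libraries were under all non-OSC libraries, and the log2FC was -0.38 (SE 0.0439, adjusted p = 1.52e-07). Of its sequence, 6.19% recurs in other genes as stretches of 75 bases, most of all in the pseudogene ATF4P3. DDIT3, which encodes CHOP, a factor of the apoptotic arm of the response (ENSG00000175197.13, chr12:57516588-57521737), had 4.63, 5.80 and 4.41 CPM in non-OSCs and 15.2, 16.7 and 19.1 CPM in OSCs. Every OSC library exceeded every non-OSC library, log2FC 1.78 (SE 0.165, adjusted p = 4.42e-09). DDIT3 faces the 3' end of MARS1, a member that fell, and 31.6% of its exons lie opposite exons of other genes, whose reads cannot be told from its own since strandedness is not given in the sources used here. The same holds for 10.6% to 23.8% of the exons of SLC1A5, ATF5, MTHFD2, CEBPB, MARS1 and WARS1.

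The C/EBP factors that pair with ATF4 were also higher in OSCs. CEBPB (ENSG00000172216.6, chr20:50190830-50192668) had 83.6, 92.5 and 84.0 CPM in non-OSCs and 122, 148 and 133 CPM in OSCs, log2FC 0.64 (SE 0.0695, adjusted p = 5.6e-08). CEBPG rose by 0.17 (SE 0.0699, adjusted p = 0.0358), from 54.1 ± 0.944 to 61.0 ± 0.652 CPM (SD, n = 3 each), and this call was lost with DESeq2 (adjusted p = 0.0816), without the filter on low counts (0.0600) and in 5 of 6 fits without 1 library. ATF5, a relative of ATF4, had 13.3 ± 0.290 CPM in non-OSCs and 11.6 ± 2.08 CPM in OSCs (SD, n = 3 each) and did not pass the test (adjusted p = 0.246). NUPR1, a stress-induced cofactor, had 8, 9 and 1 counts in non-OSCs and 2, 0 and 0 counts in OSCs, and 0 to 3 counts in the libraries of the hairpin table, and was too low to test in either.

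Feedback genes and effectors rose, with 1 exception. GDF15 (ENSG00000130513.7, chr19:18374731-18389176), a secreted stress hormone, had 6.36, 7.22 and 8.26 CPM in non-OSCs and 23.9, 27.9 and 25.1 CPM in OSCs, the largest fitted rise of the 37 genes tested (1.82, SE 0.135, adjusted p = 1.12e-10). PPP1R15A (ENSG00000087074.9, chr19:48872212-48876059), which encodes GADD34, the subunit that directs dephosphorylation of eIF2, had 62.1, 64.4 and 72.5 CPM in non-OSCs and 162, 156 and 160 CPM in OSCs. Its log2FC was 1.27 (SE 0.0635, adjusted p = 1.6e-13). For both genes the lowest OSC library lay above the highest non-OSC library by more than the spread within either group.

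VLDLR, a lipoprotein receptor, rose by 0.82, TRIB3, a pseudokinase that inhibits ATF4, by 0.76, and SESN2, a leucine sensor that restrains mTORC1, by 0.43 on the log2 scale. CHAC1, which degrades glutathione and is a usual target of ATF4 and CHOP, went the other way. It had 12.1, 13.9 and 17.1 CPM in non-OSCs and 8.75, 6.07 and 5.56 CPM in OSCs, log2FC -1.08 (SE 0.182, adjusted p = 2.36e-05). Every CHAC1 value in OSCs was below every value in non-OSCs.

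**Figure D2:**
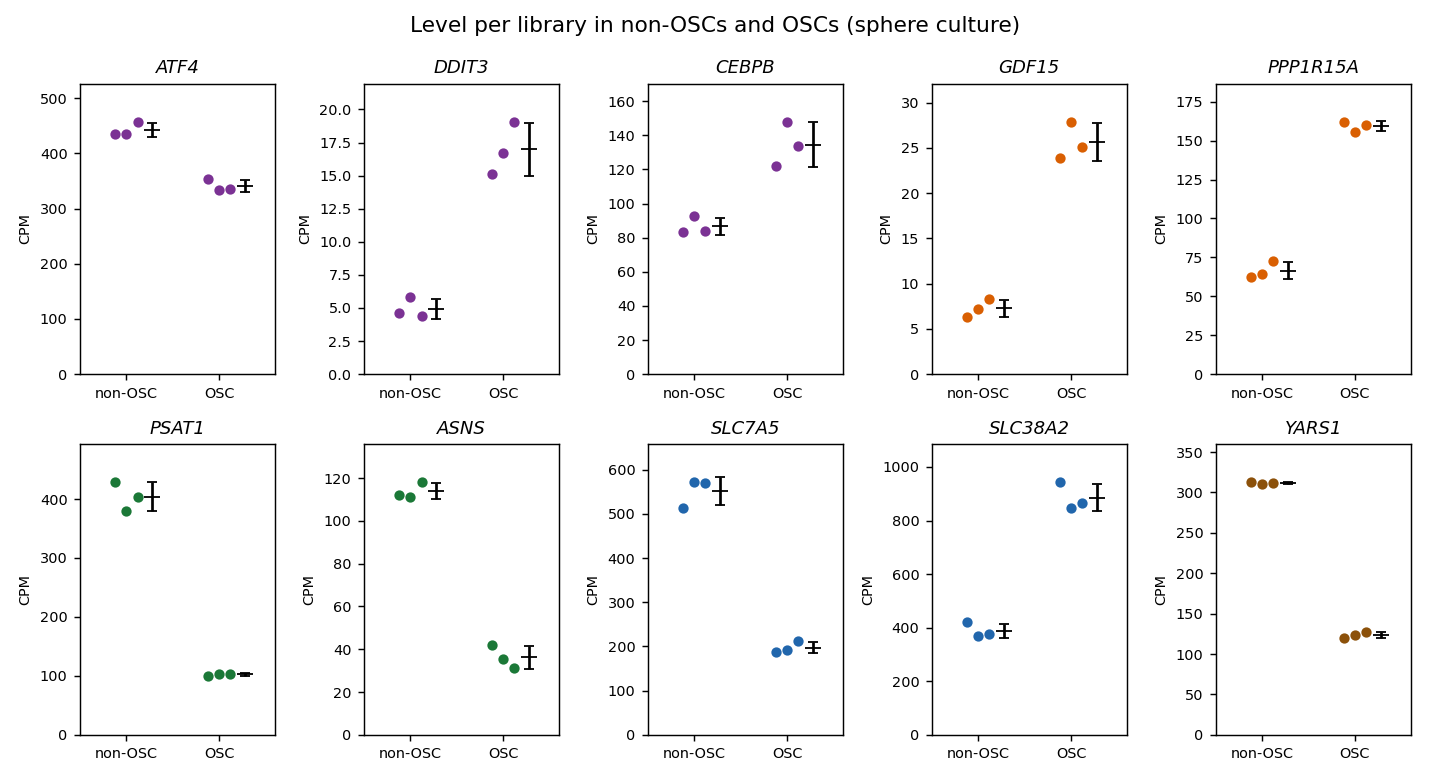
CPM (vertical axes, from 0, a scale per gene) of 10 members in each non-OSC and OSC library (points, n = 3 each), with the mean (dash) and SD (whiskers) beside them. The groups do not overlap in any of the 10 genes; ATF4, PSAT1, ASNS, SLC7A5 and YARS1 are lower and DDIT3, CEBPB, GDF15, PPP1R15A and SLC38A2 higher in OSCs.

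Of the 10 enzymes, 9 were lower in OSCs and 0 higher, beside 31.5% and 32.4% of all genes, with a median log2FC of -1.10. PSAT1 (ENSG00000135069.14, chr9:78297125-78330093), the aminotransferase of serine synthesis, had 428, 379 and 403 CPM in non-OSCs and 100, 104 and 104 CPM in OSCs. At -1.98 (SE 0.0537, adjusted p = 5.23e-18) it was the largest fall of the 37 genes tested, to 25.4% of the non-OSC mean. ASNS (ENSG00000070669.17, chr7:97851677-97872542), which makes asparagine from aspartate and glutamine, had 112, 111 and 118 CPM in non-OSCs and 42.0, 35.6 and 31.3 CPM in OSCs. Its log2FC was -1.65 (SE 0.0821, adjusted p = 1.41e-13). A locus on the same strand (ENSG00000284707) overlaps 49.3% of the ASNS exons, and RSEM gave it between 94 and 113 counts in non-OSCs and between 20 and 51 counts in OSCs; with both loci counted together the log2FC was -1.63.

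All 3 enzymes of serine synthesis were lower. PHGDH, which commits glycolytic 3-phosphoglycerate to serine, was at 33.0% of its non-OSC mean (log2FC -1.60), and PSPH, which takes the last step, at 44.15% (-1.18). SHMT2, which converts serine to glycine in mitochondria and loads the folate pool, was at 42.5% (-1.23), and the folate enzymes ALDH1L2 and MTHFD2 that follow it were at 48.9% (-1.03) and 54.3% (-0.88). Smaller falls were measured for CBS, which commits homocysteine to cysteine synthesis (-0.73), and for GPT2, the mitochondrial alanine aminotransferase (-0.71). For CBS, 32.7% of its sequence recurs in other genes as stretches of 75 bases, most of all in a duplicate locus. CTH, which completes cysteine synthesis, had only 5.73 ± 1.25 CPM in non-OSCs and 4.57 ± 1.19 CPM in OSCs (SD, n = 3 each) and did not pass the test (adjusted p = 0.265).

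Transporters did not share a direction. SLC7A5 (ENSG00000103257.9, chr16:87830023-87869507), the LAT1 carrier of leucine and other large neutral amino acids, had 514, 572 and 569 CPM in non-OSCs and 188, 192 and 212 CPM in OSCs, log2FC -1.48 (SE 0.0534, adjusted p = 6.24e-16). SLC38A2 (ENSG00000134294.14, chr12:46358188-46372773), the SNAT2 carrier of small neutral amino acids, had 420, 369 and 375 CPM in non-OSCs and 943, 847 and 867 CPM in OSCs, log2FC 1.19 (SE 0.0507, adjusted p = 1.0e-14). The groups were separated for both carriers, in opposite directions.

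The glutamine carrier SLC1A5 (-0.90), the cationic amino acid carrier SLC7A1 (-0.80) and SLC3A2, the heavy chain that brings SLC7A5 and SLC7A11 to the membrane (-0.30), were also lower in OSCs, and SLC1A4, a carrier of serine and alanine, was higher (0.25, adjusted p = 0.00944). SLC7A11, the cystine importer that pairs with SLC3A2, had 144 ± 16.3 CPM in non-OSCs and 137 ± 3.51 CPM in OSCs (SD, n = 3 each) and did not pass the test (adjusted p = 0.318); without non-OSC replicate 3 the log2FC of SLC7A11 was -0.17 (adjusted p = 0.0288).

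All 9 tRNA synthetases of the set were lower in OSCs, beside 31.5% of all genes, with log2FC values from -1.33 to -0.33 and a median of -0.82. YARS1 (ENSG00000134684.13, chr1:32775237-32818031), the tyrosyl-tRNA synthetase, had 313, 310 and 312 CPM in non-OSCs and 120, 124 and 128 CPM in OSCs, log2FC -1.33 (SE 0.0487, adjusted p = 7.82e-16). MARS1 (ENSG00000166986.15, chr12:57475445-57517569), the methionyl-tRNA synthetase, had 254, 284 and 274 CPM in non-OSCs and 117, 118 and 130 CPM in OSCs, log2FC -1.15 (SE 0.0569, adjusted p = 1.18e-13). For both synthetases the highest OSC library was far under the lowest non-OSC library. GARS1 (-0.96), NARS1 (-0.86), WARS1 (-0.82), AARS1 (-0.82), EPRS1 (-0.76) and CARS1 (-0.56) followed, and the seryl-tRNA synthetase SARS1 changed least (-0.33, SE 0.0568).

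The rest of the pathway was read from gene lists that are no members. Beside their counts stand 31.5% of all genes lower and 32.4% higher in OSCs, and nothing is read from shares near these. All 11 other cytosolic tRNA synthetases were lower in OSCs, led by IARS1 (-1.22), FARSB (-0.97) and VARS1 (-0.83), and of 17 mitochondrial synthetases 14 were lower and 1 higher, led by MARS2 (-1.46). Of 15 eIF2 kinases and initiation genes, 12 were lower and 2 higher. The largest change among these was a rise of EIF2AK3 (1.69, SE 0.112), which encodes PERK, the kinase of the endoplasmic reticulum; its level was 12.3 ± 1.76 CPM in non-OSCs and 39.7 ± 2.37 CPM in OSCs (SD, n = 3 each). Of 17 tested further genes reported as targets of ATF4 or CHOP, 9 were higher and 7 lower, and the 3 largest changes were rises of KLHL24 (2.51), the cell cycle inhibitor CDKN1A (2.44) and the apoptosis gene BBC3 (2.20).

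The following counts stand beside the 63.9% of all genes that were called, 32.4% higher and 31.5% lower, and nothing is read from shares near these. Of 9 tested one-carbon and serine genes outside the set, 4 were lower, led by MTHFD1 (-1.11), and 2 were higher, among them GLDC of the glycine cleavage system (0.86). Of 16 other amino acid transporters tested, 7 were higher and 5 lower, among them SLC7A10, which had at most 0.110 CPM in non-OSCs and between 1.11 and 2.05 CPM in OSCs, too low in non-OSCs for a fold, SLC7A8, the LAT2 carrier (2.55), and SLC1A3, a glutamate carrier (-1.77). Of 13 genes through which amino acids act on mTORC1, 7 were higher, 1 was lower and 5 did not pass the test, led by the arginine sensor CASTOR1 (2.05), SESN3 (1.21) and the Rag GTPase RRAGC (1.04).

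The next comparison asked what the weaker PDK1 knockdown, shPDK1#1, changed in these genes in OSCs. Most members differed little. Of the 37 tested, 4 passed the test, beside 3.06% of all 14574 genes, and 1 did so without shCtrl replicate 1 and 2 without shCtrl replicate 2 or shPDK1#1 replicate 3. ASNS and NARS1 were higher (1.62% of all genes were) and PPP1R15A and SLC7A11 lower (1.44% of all genes were). The median log2FC was 0.06 over the members and 0.002 over all genes.

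ASNS had 25.2, 24.7 and 33.0 CPM in the shCtrl libraries and 37.1, 38.6 and 38.8 CPM with shPDK1#1, log2FC 0.47 (SE 0.0978, adjusted p = 0.00494). The shCtrl libraries were uneven, and the call was lost without shCtrl replicate 1 (adjusted p = 0.0516) or shCtrl replicate 2 (0.0613); counted together with the overlapping locus, the ASNS log2FC was 0.39 (adjusted p = 0.0138). NARS1, the asparaginyl-tRNA synthetase (ENSG00000134440.12, chr18:57600656-57622213), had 151, 145 and 137 CPM with shCtrl and 165, 165 and 159 CPM with shPDK1#1, log2FC 0.18 (SE 0.0496, adjusted p = 0.0491). The NARS1 groups lay apart by less than the spread within shCtrl, and the call was lost in 8 of the 9 fits without 1 library.

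PPP1R15A had 94.0, 91.5 and 90.2 CPM with shCtrl and 75, 78.0 and 73.7 CPM with shPDK1#1, log2FC -0.28 (SE 0.0606, adjusted p = 0.00689). Its groups were fully apart, but the call was lost without shCtrl replicate 1 (adjusted p = 0.0514) or shPDK1#1 replicate 3 (0.0554). SLC7A11 (ENSG00000151012.13, chr4:138164097-138242349) had 196, 197 and 201 CPM with shCtrl and 178, 143 and 170 CPM with shPDK1#1, log2FC -0.27 (SE 0.0590, adjusted p = 0.0073), and kept its call in every fit without 1 library, alone among the 4. ATF4 had 346, 347 and 374 CPM with shCtrl and 364, 364 and 365 CPM with shPDK1#1, so its groups overlapped (adjusted p = 0.776). All 10 enzymes and all 9 tRNA synthetases had log2FC values above 0, where 7387 of all 14574 genes did. The values ran from 0.01 to 0.47 in the enzymes and from 0.03 to 0.18 in the synthetases. In each group 1 gene passed the test, where 1.62% of all genes were higher. With 1 library left out, the log2FC of PHGDH reached -0.0008 and that of SHMT2 -0.008.

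With shPDK1#2 more of these genes changed than with shPDK1#1. Here 8 of 10 enzymes and 7 of 9 tRNA synthetases rose, and GDF15, PPP1R15A and both C/EBP factors fell. This hairpin also left less PDK1 mRNA, and the part of that in the difference was not tested. Other effects of each hairpin cannot be told apart from its knockdown of PDK1. Of 37 members, 22 passed the test, beside 26.2% of all genes. There were 17 rises and 5 falls, where 12% of all genes rose and 14.2% fell. The shCtrl and shPDK1#2 libraries did not overlap in 29 members, beside 39.5% of all genes. The median log2FC was 0.18 over the members and 0.008 over all genes, and GDF15 was the only member with a called change of at least 1 on the log2 scale.

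ATF4 again did not pass the test, with 359, 378 and 347 CPM with shPDK1#2 against the shCtrl values above (log2FC 0.02, SE 0.0414, adjusted p = 0.720). Its partner CEBPB had 62.8, 65.1 and 59.6 CPM with shCtrl and 50.8, 48.8 and 51.6 CPM with shPDK1#2, log2FC -0.31 (SE 0.0711, adjusted p = 0.00157). CEBPG (ENSG00000153879.9, chr19:33373685-33382686) had 48.2, 47.5 and 46.6 CPM with shCtrl and 40.6, 39.0 and 38.2 CPM with shPDK1#2, log2FC -0.27 (SE 0.0723, adjusted p = 0.00618). For both factors every shPDK1#2 library was under every shCtrl library. DDIT3 had 7.02, 4.82 and 7.21 CPM with shCtrl and 4.28, 4.05 and 4.69 CPM with shPDK1#2 (log2FC -0.54, adjusted p = 0.0651); without shCtrl replicate 2, whose DDIT3 value was the lowest of the 3, it was -0.71 (adjusted p = 0.0231).

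GDF15 had 9.65, 9.74 and 10.7 CPM with shCtrl and 2.14, 4.55 and 4.27 CPM with shPDK1#2, that is 36.5% of the shCtrl mean (log2FC -1.46, SE 0.211, adjusted p = 6.5e-06). PPP1R15A had 48.8, 52.3 and 45.5 CPM with shPDK1#2, 53.2% of its shCtrl mean (log2FC -0.91, SE 0.0633, adjusted p = 2.65e-11). These were the largest falls among the 37 genes tested. The other 4 feedback genes and effectors did not pass the test, with log2FC values of -0.30 (CHAC1), -0.20 (TRIB3), -0.16 (SESN2) and 0.06 (VLDLR).

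**Figure D3:**
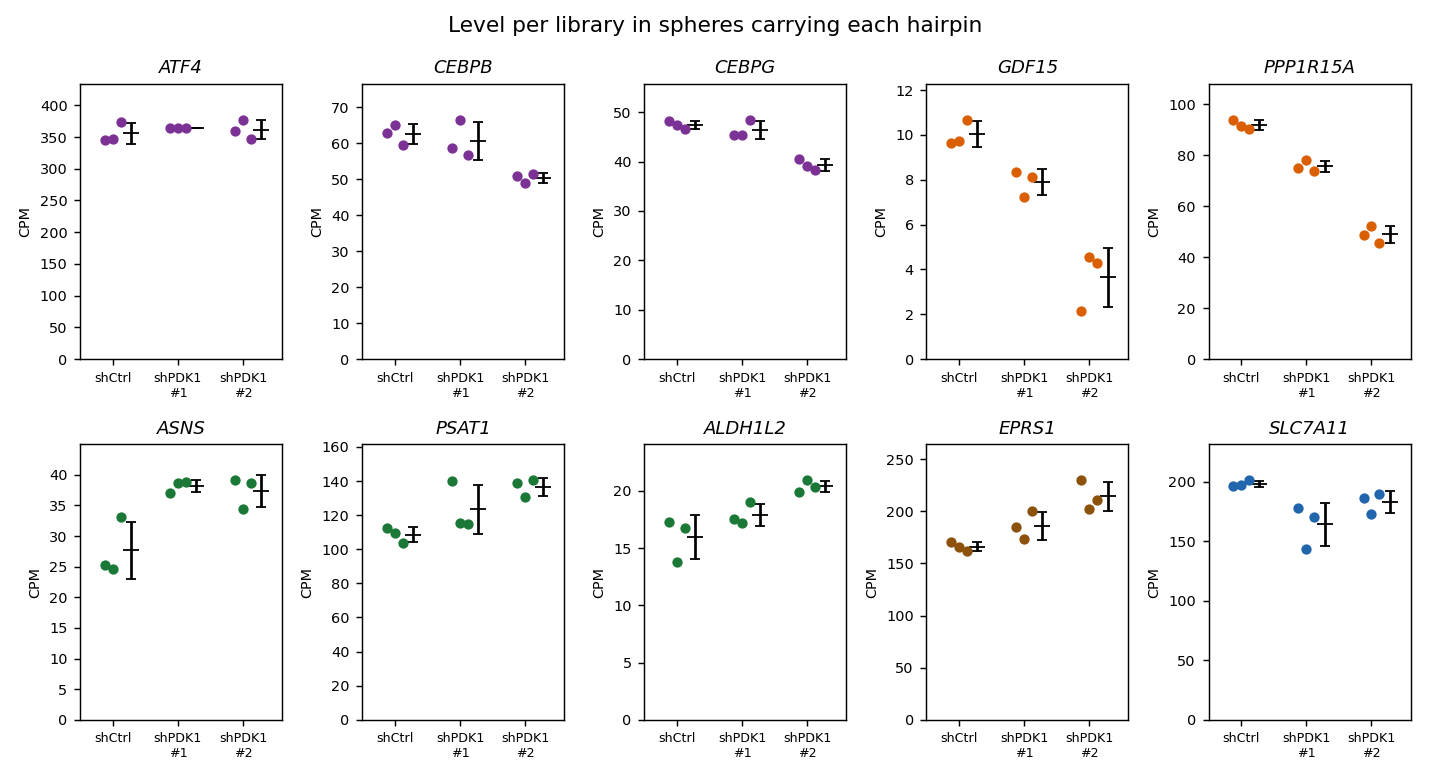
CPM (vertical axes, from 0, a scale per gene) of 10 members in each library of OSCs with shCtrl, shPDK1#1 or shPDK1#2 (points, n = 3 each), with the mean (dash) and SD (whiskers) beside them. ATF4 overlaps between all groups, GDF15 and PPP1R15A lie highest in shCtrl, between in shPDK1#1 and lowest in shPDK1#2, and ASNS, PSAT1, ALDH1L2 and EPRS1 are higher with shPDK1#2 than with shCtrl in every library.

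Of the 10 enzymes, 8 rose with shPDK1#2 and 0 fell, beside 12% and 14.2% of all genes. ASNS reached 39.1, 34.4 and 38.8 CPM, log2FC 0.45 (SE 0.0975, adjusted p = 0.00107). PSAT1 had 112, 110 and 104 CPM with shCtrl and 139, 130 and 140 CPM with shPDK1#2, log2FC 0.33 (SE 0.0632, adjusted p = 0.000269). ALDH1L2 (ENSG00000136010.14, chr12:105019784-105107643) had 17.3, 13.8 and 16.8 CPM with shCtrl and 19.9, 20.9 and 20.3 CPM with shPDK1#2. Its log2FC was 0.36 (SE 0.111, adjusted p = 0.017), and the call was lost with DESeq2 (adjusted p = 0.0532) and without shCtrl replicate 2 (0.129). The libraries of all 3 genes stood apart, by less than the spread within shCtrl for ASNS and ALDH1L2.

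PHGDH (0.30), SHMT2 (0.28), GPT2 (0.25), CBS (0.21) and MTHFD2 (0.15) also rose on the log2 scale. The MTHFD2 call (adjusted p = 0.0405) was lost with DESeq2 (0.0765), with library size alone (0.0636), without the filter (0.0640) and in 5 of 9 fits without 1 library; that of CBS was lost without shCtrl replicate 1 and that of GPT2 without shCtrl replicate 3 or shPDK1#2 replicate 2. PSPH (0.28, adjusted p = 0.0553) and CTH (0.36, adjusted p = 0.395) did not pass the test. PSPH did pass with a replicate block (adjusted p = 0.0496), without the filter (0.0451), where each library had to hold at least 10 counts (0.0407) and without shCtrl replicate 1 or 3, and its log2FC ran from 0.13 to 0.38 with 1 library left out.

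Of the 9 tRNA synthetases, 7 rose with shPDK1#2 and 0 fell, beside 12% and 14.2% of all genes. EPRS1 (ENSG00000136628.18, chr1:219968600-220046530), which charges glutamate and proline tRNAs, had 171, 166 and 162 CPM with shCtrl and 230, 203 and 211 CPM with shPDK1#2. The groups were fully apart, log2FC 0.37 (SE 0.0539, adjusted p = 8.41e-06). YARS1 (0.29), AARS1 (0.27), MARS1 (0.20), NARS1 (0.20), CARS1 (0.19) and WARS1 (0.18) rose less on the log2 scale; CARS1 lost its call without shCtrl replicate 1, shPDK1#2 replicate 2 or shPDK1#2 replicate 3, and WARS1 without shCtrl replicate 1. GARS1 (-0.08) and SARS1 (-0.12) did not pass the test.

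Among the transporters, SLC7A5 (0.32) and SLC1A5 (0.25) rose and SLC38A2 fell (-0.15, SE 0.0399, adjusted p = 0.00557). SLC7A11, lower with shPDK1#1, had 187, 172 and 189 CPM with shPDK1#2 (log2FC -0.12, adjusted p = 0.155). SLC3A2 (-0.10), SLC7A1 (0.06) and SLC1A4 (0.03) did not pass the test.

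Outside the set, DDIT4 and STC2, further reported targets of ATF4 or CHOP, rose with both hairpins. DDIT4, an inhibitor of mTORC1, averaged 116 ± 1.52 CPM in shCtrl, 268.5 ± 6 CPM under the first hairpin and 277 ± 9.91 CPM under the second (SD, n = 3 each), rises of 1.21 and 1.25 on the log2 scale against the same shCtrl libraries. STC2, a secreted glycoprotein, rose by 0.73 and 0.62. CDKN1A fell by 0.28 with shPDK1#1 and by 1.06 with shPDK1#2. Over the list of 17 tested, 2 rose and 1 fell with shPDK1#1, beside 1.62% and 1.44% of all genes. With shPDK1#2, 4 rose and 4 fell, beside 12% and 14.2% of all genes, and nothing is read from shares near these.

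With shPDK1#2, 6 of 11 other cytosolic and 4 of 17 mitochondrial tRNA synthetases rose and 0 fell, beside 12% of all genes that rose and 14.2% that fell, led by QARS1 (0.27) and EARS2 (0.39). With shPDK1#1 the cytosolic ones ranged from -0.03 to 0.17 and the mitochondrial ones from -0.14 to 0.24 on the log2 scale, each at an adjusted p over 0.05. The one-carbon and serine genes SRR (1.29, from 0.974 ± 0.310 to 2.44 ± 1.44 CPM, SD, n = 3 each), GLDC (0.49) and SHMT1 (0.43) were among 5 of 9 that rose with shPDK1#2, and GLDC was the 1 that rose with shPDK1#1 (0.29). Of 15 eIF2 kinases and initiation genes, 7 rose and 1 fell with shPDK1#2 and 1 rose with shPDK1#1, where 1.62% of all genes rose. EIF2S3, an eIF2 subunit, rose with both hairpins (0.17 with shPDK1#1 and 0.34 with shPDK1#2), and EIF2AK3 did not pass the test with either (0.03 and -0.28). Of the 13 mTORC1 sensing genes, SESN1 (0.62) was among 2 that rose with shPDK1#2 and RRAGC (-0.38) among 2 that fell, and with shPDK1#1 all 13 lay between -0.20 and 0.20 without passing the test. Of 15 other transporters tested, 4 rose and 2 fell with shPDK1#2, led by SLC6A6, the taurine carrier (0.42).

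A direct contrast of the hairpins gave 10 of 37 members that differed, 5 higher and 5 lower with shPDK1#2 than with shPDK1#1, beside 6.5% of all genes higher and 9.78% lower. GDF15 (-1.12, SE 0.215) and PPP1R15A (-0.63, SE 0.0642) differed most on the log2 scale. With shPDK1#1, GDF15 had 8.33, 7.22 and 8.13 CPM, all below the shCtrl and above the shPDK1#2 libraries, although its own difference from shCtrl did not pass the test (log2FC -0.34, adjusted p = 0.436). PPP1R15A followed the same order of groups with no overlap. PHGDH was measured at 162, 165 and 171 CPM under shPDK1#1 and 194, 202 and 206 CPM under shPDK1#2 (log2FC 0.27), and SHMT2 172, 177 and 168 CPM against 201, 208 and 212 CPM (0.27). ASNS, the largest rise with each hairpin, did not pass the test between them (-0.03, SE 0.0927, adjusted p = 0.878).

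The OSC comparison and that of shPDK1#2 with shCtrl share no library, and their values can be set side by side. Of the 24 members lower in OSCs than in non-OSCs, 17 (70.8%) were higher with shPDK1#2 and 0 were lower. Among all 4418 genes lower in OSCs and tested in both tables, 23.7% were higher with shPDK1#2 and 6.11% were lower. The 17 hold 8 of 9 enzymes, 7 of 9 tRNA synthetases and 2 of 4 transporters. Of the 10 members higher in OSCs, 5 (50%) were lower with shPDK1#2 and 0 were higher. These 5 are CEBPB, CEBPG, GDF15, PPP1R15A and SLC38A2. Among all 4580 genes higher in OSCs and tested in both tables, 30.6% were lower with shPDK1#2 and 6.88% were higher. Opposite directions were also usual over the whole table, with 80.7% of the 3033 genes called in both comparisons, beside 22 of 22 members. Some of these member calls were not firm. That of CEBPG in OSCs was lost in 5 of 6 fits without 1 library. With shPDK1#2, those of MTHFD2 and CARS1 were lost in 5 and 3 of 9 such fits.

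The sizes differed between the comparisons. PSAT1 fell by 1.98 on the log2 scale in OSCs and rose by 0.33 with shPDK1#2, and ASNS fell by 1.65 and rose by 0.45. GDF15 rose by 1.82 in OSCs and its log2FC with shPDK1#2 was -1.46, and for PPP1R15A these were 1.27 and -0.91. ATF4, GARS1, SARS1, CHAC1, SLC3A2, SLC7A1 and PSPH were lower in OSCs and did not pass the test with shPDK1#2, and DDIT3, TRIB3, SESN2, VLDLR and SLC1A4 were higher in OSCs and did not pass it. With shPDK1#1, 2 of the 24 members lower in OSCs (8.33%) were higher, beside 1.83% of all such genes, and 1 of the 10 higher in OSCs (10%) was lower, beside 2.73% of all such genes.

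**Figure D4:**
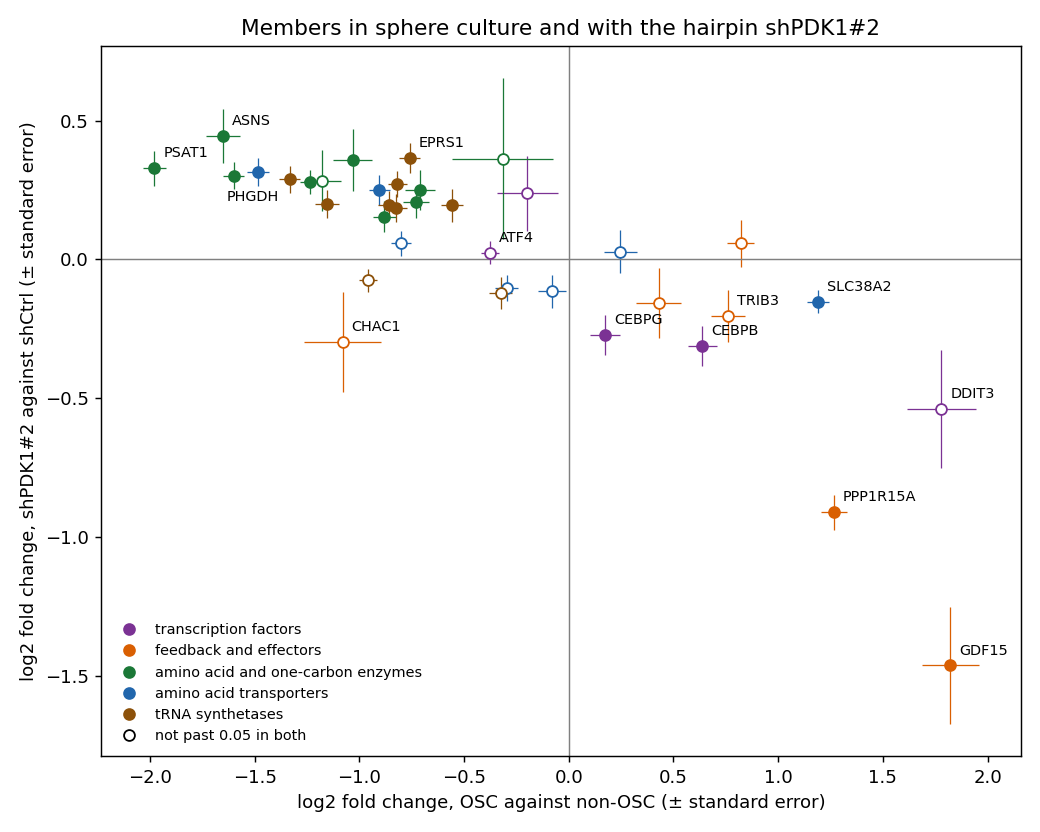
Log2 fold change in OSC against non-OSC (horizontal axis) and in shPDK1#2 against shCtrl (vertical axis) of the 37 members tested, with standard errors and colours by role; filled points had an adjusted p under 0.05 in both. All 22 filled points lie in the upper left (17) or lower right (5) quadrant.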

How the data were processed

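RNA of 15 libraries of 143B cells was sequenced as paired-end reads. The authors used Trimmomatic 0.39 for trimming, FastQC 0.12.1 for quality, STAR 2.7.11a for alignment (GRCh38.p14) and RSEM 1.3.3 for quantification. They deposited expected counts per gene, without normalization, in a table of 6 and a table of 9 libraries. The annotation and the strandedness are not given in the sources used here. All 62700 identifiers matched GENCODE 44, and 0 value columns were left unmapped.

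Counts were rounded and tested with edgeR 4.0.16 in R 4.3.3 (TMM, filterByExpr by group, quasi-likelihood test, Benjamini-Hochberg adjustment over all genes, threshold 0.05), with 1 fit per table; the hairpin contrasts share shCtrl. Standard errors come from the log2 fold change and its F statistic. Depth ran from 7992499 to 11256536 counts. Libraries of a group were not copies of one another (chi-square over its degrees of freedom 1.95 to 3.67, all past sampling noise). This value cannot show whether they came from separate cultures or the same culture. The coefficient of variation between libraries that edgeR estimated was 0.0548 in the OSC table and 0.0482 in the hairpin table. Same-numbered libraries did not deviate together (12 pairs, correlation -0.0539 to 0.0948). DESeq2 1.42.0, library size alone, other filters, a replicate block, fits of the compared groups only and fits without each library were alternatives. Figures used Python 3.11.15 and matplotlib 3.10.9.

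Members, roles and further lists were chosen with earlier results of these data known. Values per library are given for ATF4, the 2 called members per role that changed most in OSCs without overlap, all members called with shPDK1#1, and the 4 largest rises and falls called with shPDK1#2; a few others were added after their values were seen. Of each further list at most 3 genes per comparison were named by size, besides repeats for EIF2AK3 and STC2.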

Additional observations from a re-analysis of the deposited data

Results flagged for a closer look

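The effect of the hairpins differed between shPDK1#2 and shPDK1#1 for 10 members, by edgeR's test of the difference itself. On the log2 scale the difference was -1.12 for GDF15 (adjusted p = 0.000486), -0.63 for PPP1R15A (6.73e-08), -0.27 for CEBPB (0.00972), -0.24 for CEBPG (0.0203) and -0.19 for SARS1 (0.0285). It was 0.27 for PHGDH (0.000209), 0.27 for SHMT2 (7.34e-05), 0.23 for AARS1 (0.000795), 0.20 for EPRS1 (0.00904) and 0.16 for SLC7A5 (0.026). PDK1 mRNA also differed between the hairpins (log2 fold change -0.50, standard error 0.0908), and its part in these differences was not tested. Without shPDK1#1 replicate 3, 7 members passed the test between the hairpins, since CEBPG, SARS1 and SLC7A5 did not. Over all 9 such fits SARS1 lost its call in 4 and CEBPG and SLC7A5 in 3 each, and SARS1 also lost it with DESeq2 (adjusted p = 0.0536) and without the filter on low counts (0.0543). CEBPB lost its call without shPDK1#1 replicate 2 and EPRS1 without shPDK1#2 replicate 1. GDF15, PPP1R15A, PHGDH, SHMT2 and AARS1 passed in all 9 fits without 1 library.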

How the results depend on the processing

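No member call turned its direction under any alternative, and of 2076 member results under the alternatives 52 lost and 26 gained a call. Members called numbered 33 to 34 in OSC against non-OSC and 19 to 23 with shPDK1#2 under all alternatives. With each library left out in turn, members called with shPDK1#1 numbered 1 to 4 and all genes called 245 to 508. The lowest counts came without shCtrl replicate 1 (1 member, 270 genes), without shCtrl replicate 2 (2 members, 282 genes) and without shPDK1#1 replicate 3 (2 members, 245 genes), where the calls rest on fewer samples. The replicate block, for numbers that do not pair the libraries, gave 34 members in OSC against non-OSC, 5 with shPDK1#1, 23 with shPDK1#2 and 12 between the hairpins, and 9420, 507, 3943 and 2522 genes. Adding the overlapping locus to ASNS, chosen after the data were seen, changed no ASNS call. The median of all genes in OSC against non-OSC was -0.005 on the log2 scale and 0.031 with library size alone. NUPR1 passed the test, as lower in OSCs, where no filter on low counts was used. Low counts limit NUPR1, CTH, DDIT3 and GDF15 most.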
